A study of Homo sapiens with 2 samples.

Results

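The genes described here are the proteasome subunits, that is every gene whose name on the array begins with PSMA, PSMB, PSMC, PSMD, PSME, PSMF or PSMG and ends in a number. This rule looks only at names and found 43 genes, read by 64 probes, of 30484 gene names on the array. They were followed in HEK-293 cells, an adenovirus-transformed line from human embryonic kidney. The cells had received either a miR-204 mimic or a scrambled control oligonucleotide, each at 75 nM for 48 h as the sample labels state. RNA of both transfections was hybridized together on 2-colour Agilent arrays, on which each probe is read once in the green dye Cy3 and once in the red dye Cy5. The first array held control RNA in Cy3 and miR-204 RNA in Cy5, and the dye-swap array held them the other way round. No second transfection is named for the arrays, so the 2 arrays were taken as 1 replicate. No test between the conditions was possible, and the gap between the arrays is the only error that can be given.

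The proteasome is the cell's main machine for degrading proteins that carry ubiquitin chains. Its 20S core is a barrel with outer rings of alpha subunits and inner rings of beta subunits, of which PSMB5, PSMB6 and PSMB7 cut the protein chain. The 19S particle caps the barrel, where its ring of ATPases (PSMC genes) unfolds the substrate and its other subunits (PSMD genes) bind and remove ubiquitin. Dividing cells such as HEK-293 hold abundant proteasomes, and the genes of the complex are known to be transcribed together. Blood and immune cells, or cells exposed to interferon, replace the cutting subunits by PSMB8, PSMB9 and PSMB10.

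The mimic stands for miR-204, whose main mature product and its only relative by seed among 2545 mature human miRNAs are shown because the seed is the part of a miRNA that pairs with its targets. Both are 5p products taken from RefSeq (GRCh38.p14), and the labels do not name the arm of the mimic. Capitals mark the seed, bases 2 to 8 from the 5′ end.
hsa-miR-204-5p: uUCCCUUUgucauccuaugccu
hsa-miR-211-5p: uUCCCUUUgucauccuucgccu
The sequence of miR-204-5p lies at chr9:70810031-70810052 on the minus strand, within TRPM3, and that of miR-211-5p at chr15:31065095-31065116 on the minus strand, within TRPM1. No search for the seed in proteasome transcripts was made.

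A ratio was counted where a probe was well above background, by the scanner software's own call, in the control RNA of both arrays or in the miR-204 RNA of both. This held for 25270 probes and 18585 gene names. Of the proteasome genes, 41 were counted, through 61 probes that were all well above background in all 4 channels. None of the 64 probes was saturated or carried an outlier flag. Among all counted probes, 6318 formed the brightest 25% by mean signal, and 47 of the 61 proteasome probes were among them. HEK-293 cells were checked by markers: probes for VIM, KRT8, KRT18, NEFM, NEFL and LIN28B were counted, while PAX2 was not well above background. Of the markers of other cells, PTPRC, CD3E, ALB, HBB and PECAM1 were not well above background in any channel, and COL1A1 and CD68 were well above it in all 4.

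No proteasome gene was lower or higher by 2-fold in cells overexpressing miR-204, as the mean of both arrays with the same sign on each. Over all counted gene names, 0.452% were lower and 0.151% higher by this rule, so that an empty count among 41 genes is near what these shares give. Neither did any proteasome gene pass 1.5-fold, where 2.06% of all gene names were lower and 1.44% higher. The mean log2 ratio of the 41 genes ran from -0.39 for PSMD13 to 0.23 for PSMB3, with a median of 0.04 against 0.002 over all gene names. In the mean, 39 of the 41 genes lay within 1.2-fold of the control, or 95.1%, a limit chosen after these values were seen. This share was 75.5% over all gene names and 88.3% over the 3709 gene names whose probes were all in the brightest 25%. Of the 29 proteasome genes among these 3709, 27, or 93.1%, lay within 1.2-fold. With another background correction, normexp followed by loess within each array, the share over all gene names was 89.9% and 39 proteasome genes were again within 1.2-fold. As whole cultures were measured, fewer cells of a kind and less RNA per cell cannot be told apart.

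The signs on the arrays disagreed for most of the genes. Only 4 of 41 proteasome genes were lower on both arrays, where 22.8% of all gene names were, and 9 were higher on both, where 24.5% were. The other 28, or 68.3%, had opposite signs, against 52.5% of all gene names. With all probes in the brightest 25%, the shares were 62.1% of 29 proteasome genes and 54.1% of all such gene names. Reading each gene by its brightest probe in place of the mean, the shares were 56.1% of proteasome genes and 52.1% of all gene names. Of these 28, 19 stood below 0 on the first array and above it on the dye swap (46.3%, against 24.7% of all gene names). On the first array the median proteasome ratio was -0.04 and that of all gene names 0.02. On the dye swap they were 0.07 and -0.004. Set against the median of probes of like signal (20 bins), the proteasome medians were -0.05 and 0.08. Across the 41 genes, the ratios of the arrays ran against each other (Pearson's r = -0.73, Spearman's rho = -0.58), and across all gene names they were nearly unrelated (r = -0.02). These correlations are across genes read on the same 2 arrays, which are not independent replicates, and are given as a description. Without PSMD13 and PSMD2, the genes farthest out on the first array, r was -0.63, and without the 5 farthest (these, PSMC3, PSMD10 and PSMD11) it was -0.45 and rho was -0.39.

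**Figure D1:**
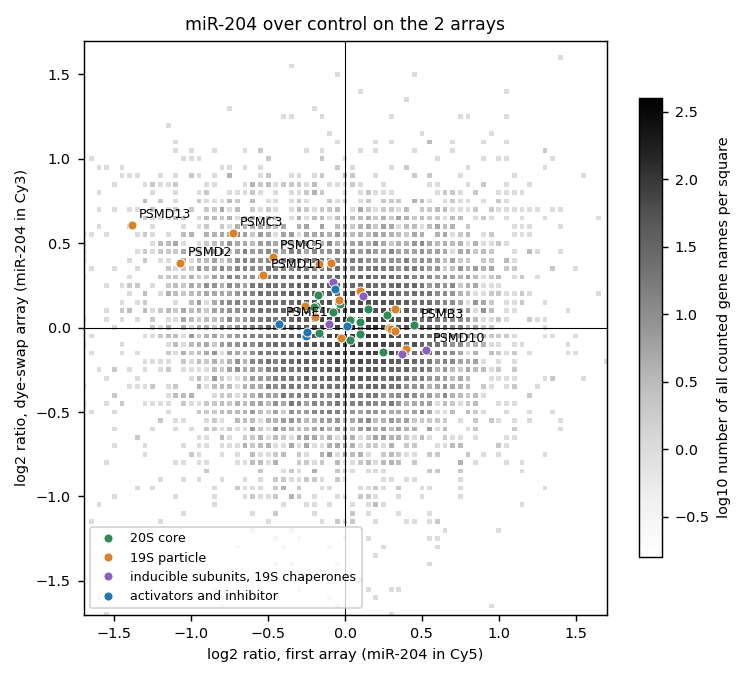
Log2 ratio of miR-204 over control on the first array (horizontal) against the dye-swap array (vertical), with all 18585 counted gene names as grey squares shaded by number and the 41 proteasome genes as coloured points by role. Gene names beyond the axes are not drawn. The proteasome genes run from the upper left, where PSMD13 lies at -1.39 and 0.61, to the lower right, where PSMD10 lies at 0.53 and -0.13.

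The 7 alpha subunits, which form the outer rings and the gate of the core, all lay within 1.2-fold in the mean. PSMA7 had processed signals of 13809 in control RNA and 12171 in miR-204 RNA on the first array, and of 9313 and 9048 on the swap. Its ratio was lower on both arrays, at -0.17 and -0.03 on the log2 scale. PSMA3, the highest of the ring, read 11236 in control and 13258 in miR-204 RNA on the first array, and 8009 and 8382 on the swap. It was higher on both, at 0.27 and 0.07. PSMA5 was also higher on both arrays, at 0.10 and 0.03. PSMA1, PSMA2, PSMA4 and PSMA6 changed sign between the arrays. Among these, PSMA2 had -0.19 and 0.13, PSMA4 -0.08 and 0.09 and PSMA1 0.03 and -0.08, so that their means came within 0.03 of 0. Both probes of PSMA6, which lie in the same stretch of chromosome 14, did so in the same way, with 0.29 and 0.20 on the first array and -0.18 and -0.11 on the swap. The mean ratios of the ring lay between -0.10 and 0.17.

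The 7 constitutive beta subunits had mean log2 ratios from -0.04 to 0.23, and none was lower on both arrays. PSMB5, which carries the chymotrypsin-like activity and is the subunit that proteasome inhibitors used as drugs bind, read 21771 in control and 18677 in miR-204 RNA on the first array. On the dye swap it read 14963 and 17081, so that its log2 ratios were -0.18 and 0.19 and its mean was 0.01. PSMB6, with the caspase-like activity, was higher on both arrays. Its signals were 17751 and 18906 on the first array and 12854 and 13821 on the swap, for ratios of 0.15 and 0.11, the closest agreement among the cutting subunits. PSMB7, with the trypsin-like activity, had opposite signs. Averaged over its 2 probes on the log2 scale, it read 2892 and 2471 on the first array and 1797 and 1965 on the swap. The averaged ratios were -0.20 and 0.12. The probes of PSMB7 read opposite strands by the order of their coordinates and differed widely in signal. The probe on the strand of the gene's RefSeq transcript, at chr9:126155712-126155771 (hg18), gave -0.10 and 0.19. It read 29924 in control RNA of the first array, and the probe of the other strand 280. Of the subunits without a cutting site, PSMB4 read 43583 in control and 42656 in miR-204 RNA on the first array and 29283 and 30965 on the swap. After normalization its ratios were 0.03 and 0.04, the smallest gap in the ring. PSMB1 had -0.03 and 0.14 and PSMB2 had 0.10 and -0.04, each averaged over 2 probes. PSMB3, another such subunit, was the highest of all proteasome genes, yet nearly all of this came from the first array. It read 7440 in control and 10115 in miR-204 RNA there and 5422 and 5449 on the swap, for ratios of 0.45 and 0.02.

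**Figure D2:**
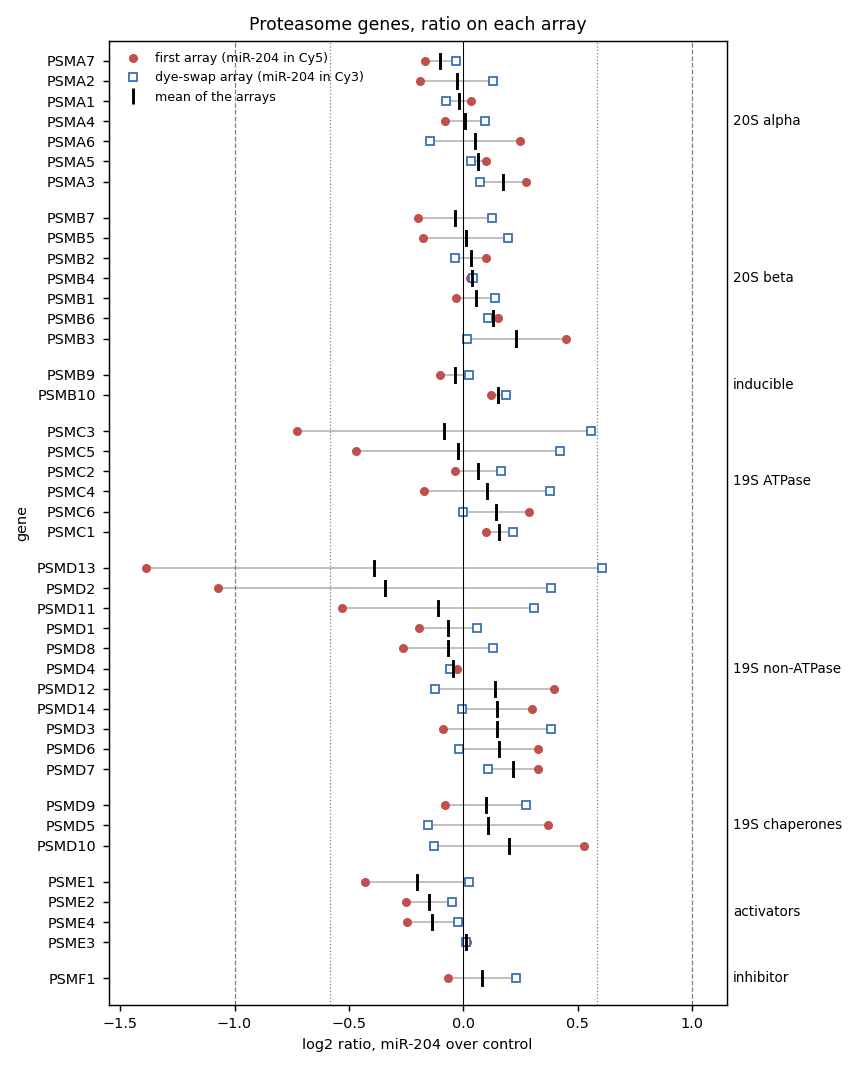
Log2 ratio of miR-204 over control for each of the 41 counted proteasome genes, by role, on the first array (red circle) and on the dye-swap array (open blue square), with the mean as a black bar. Dotted lines stand at 1.5-fold and dashed lines at 2-fold. All means lie between the dotted lines, and the widest gaps between arrays are those of PSMD13, PSMD2 and PSMC3 in the 19S particle.

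Of the 3 inducible subunits, 2 were counted. PSMB8, the counterpart of PSMB5, was well above background in no channel, and no ratio is given for it. PSMB9, the counterpart of PSMB6, was measured at low signal, 169 in control and 158 in miR-204 RNA on the first array and 127 and 130 on the swap. Its ratios were -0.10 and 0.02, with a mean of -0.04. PSMB10, the counterpart of PSMB7, read 1751 and 1874 on the first array and 1355 and 1544 on the swap. It was higher on both, at 0.12 and 0.19. Of genes for peptide loading and class I presentation, which interferon raises together with the inducible subunits, 10 of 12 were counted (TAP2 and ERAP1 were not). None passed 1.5-fold, where 2.06% of all gene names were lower and 1.44% higher. Lower on both arrays were 3, against 22.8% of all gene names, and none was higher on both, against 24.5%. Of the 3, TAPBP was averaged over 2 counted probes, 1 of which read 25.8 or less in every channel. The 10 genes had a median mean log2 ratio of -0.12. Their lowest mean was -0.40 for NLRC5, an activator of class I genes that was well above background in only 2 channels. The highest was -0.01 for HLA-B.

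The 6 ATPases of the 19S ring, which work as 1 hexamer, had mean ratios between -0.09 for PSMC3 and 0.16 for PSMC1, and 5 of 6 had opposite signs on the arrays. PSMC3 read 3553 in control and 2117 in miR-204 RNA on the first array and 1896 and 2789 on the dye swap. Its log2 ratio was thus -0.73 on the former and 0.56 on the latter. On both arrays the Cy3 channel was the brighter, whichever RNA it held. PSMC5 showed the same order, with 1509 in control and 1082 in miR-204 RNA on the first array and 914 and 1229 on the swap. Its ratios were -0.47 and 0.42, with a mean of -0.02. PSMC4, whose signals were 5271 and 4593 on the first array and 3312 and 4320 on the swap, had -0.17 and 0.38. PSMC2 had -0.04 and 0.16. These 4 ATPases all stood below 0 on the first array and above it on the swap. PSMC1 was the only ATPase higher on both arrays. Averaged over 3 probes, it read 13411 and 13979 on the first array and 9257 and 10770 on the swap, for ratios of 0.10 and 0.22. PSMC6 was read by 4 probes spread along its transcript on chromosome 14. Their mean ratios were between 0.136 and 0.145, a range of 0.009 and the closest agreement of any proteasome gene with several probes. All 4 were higher on the first array, by 0.26 to 0.36, and stood between -0.07 and 0.03 on the swap.

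The 11 other 19S subunits included the lowest gene and the widest gaps. PSMD13, a subunit of the lid, read 3918 in control RNA and 1498 in miR-204 RNA on the first array. On the dye swap it read 1787 in control and 2729 in miR-204 RNA. Its log2 ratios were -1.39 and 0.61, so that the mean of -0.39 stands beside a difference of -1.99 between the arrays and cannot be called a fall. The ends of the single PSMD13 probe lie 740 bases apart on the genome (chr11:240851-241590 on hg18), so that it joins exons. PSMD2, a large scaffold of the base and a docking site for ubiquitin receptors, read 5466 and 2544 on the first array and 2650 and 3479 on the swap. Its ratios were -1.07 and 0.38. On the first array alone, these 2 genes would have counted as lower by 2-fold, and neither was lower on the other. PSMD11, a lid subunit, read 5492 and 3741 on the first array and 3251 and 4038 on the swap, for ratios of -0.53 and 0.31. In all 3 genes the Cy3 signal exceeded the Cy5 signal on each array.

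**Figure D3:**
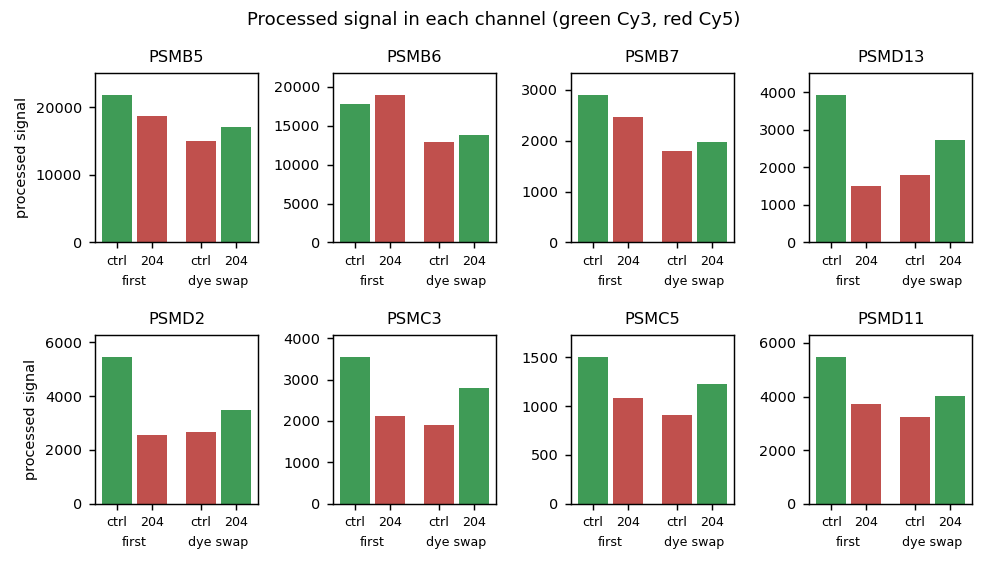
Processed signal for the cutting subunits PSMB5, PSMB6 and PSMB7 and for the 5 genes with the most negative gap between the arrays, in control and miR-204 RNA by array. Green bars are Cy3 and red bars Cy5, each panel has its own scale from 0, and levels are not comparable between panels. The PSMB7 panel shows the average on the log2 scale over 2 probes that read opposite strands. In PSMD13, PSMD2, PSMC3, PSMC5 and PSMD11 the green bar is the taller on both arrays, and in PSMB6 the miR-204 bar is the taller on both.

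PSMD7, the inactive partner of the deubiquitinase PSMD14, was the only one of the 11 higher on both arrays. It read 21079 and 25586 on the first array and 14518 and 15942 on the swap, for ratios of 0.33 and 0.11. PSMD14, which removes the ubiquitin chain from the substrate, had 0.30 and -0.01, and PSMD6 had 0.33 and -0.02. The ubiquitin receptor PSMD4 was the only one lower on both, at -0.03 and -0.06 as the average of 2 probes. Its brighter probe gave 0.10 and -0.11, and its dimmer probe -0.15 and -0.02. PSMD3, a lid subunit, had -0.09 and 0.38 over 2 probes, and both probes stood below 0 on the first array and above it on the swap. PSMD8, another subunit of the lid, had -0.26 and 0.13 over 2 probes. The brighter, at 19883 in control RNA of the first array, gave -0.30 and 0.02, and the dimmer, at 133, -0.23 and 0.24. PSMD12 went the other way in all 3 of its probes, with gene means of 0.40 and -0.12. The sign of the gap between arrays thus differed within the lid. Of the 17 counted 19S subunits, 10 (58.8%) had a negative ratio on the first array and a positive one on the swap. Of the 14 subunits of the 20S core, 5 (35.7%) did so, against 24.7% of all gene names. The share was 27.3% over gene names with all probes in the brightest 25%. The difference between 19S and 20S subunits was not tested, and signal was not matched between them.

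The gap between the arrays, as the first array's log2 ratio minus that of the dye swap, stood below -0.8 in 5 proteasome genes: PSMD13, PSMD2, PSMC3, PSMC5 and PSMD11. None stood above 0.8. By the same limit, chosen after these values were seen, 7.33% of all gene names stood below and 4.54% above, and in the brightest 25% these shares were 3.88% and 0.917%. The probe of PSMC5 was not among the brightest 25%. The median gap of the 41 genes was -0.14, against 0.04 over all gene names. The orientation of the dyes is the only labelled difference between the arrays, and its part in these values was not tested.

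Assembly chaperones of the 19S base all had opposite signs. PSMD10, also known as gankyrin, read 2641 in control and 3741 in miR-204 RNA on the first array and 2087 and 1900 on the swap. Its ratios of 0.53 and -0.13 averaged to 0.20, the highest of the group. PSMD9 was the lowest, with average signals of 856 and 808 on the first array and 537 and 650 on the swap. Its 2 probes were averaged on the log2 scale and were far apart, at 10079 and 72.6 in control RNA of the first array. The ratios of PSMD9 were -0.08 and 0.27. PSMD5 was read at low signal by 1 of its 2 probes (85.6 and 111 on the first array, 55.3 and 49.9 on the swap), and its other probe was not well above background. PSMA8, the testis form of an alpha subunit, was likewise well above background in no channel. No gene bears a PSMG name on the array. Of these chaperones of the 20S core, PSMG1, PSMG2 and PSMG3 were found under the older names DSCR2, TNFSF5IP1 and C7orf48, with mean ratios of 0.11, 0.09 and -0.01, and are not counted among the 43.

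Among the activators, which open the core in place of the 19S cap, 3 of 4 had negative means. Over all gene names the median mean was 0.002, with 45.5% at or below -0.02 and 51.1% at or below 0.008. A count of 3 among 4 genes is not far from what these shares give. PSME1, the alpha subunit of the interferon-inducible PA28 ring, averaged 3417 and 2464 on the first array and 2253 and 2307 on the swap. Its 2 probes were averaged on the log2 scale and read 20476 and 570 in control RNA of the first array. The brighter gave -0.11 on both arrays and the dimmer -0.75 and 0.16. The ratios of PSME1 were -0.43 and 0.02, with a mean of -0.20. PSME2, the beta subunit of the same ring, was lower on both arrays, at -0.25 and -0.05, as was PSME4, the activator PA200, at -0.25 and -0.03. PSME3, the nuclear PA28 gamma, stood nearest 0, with ratios of 0.02 and 0.01. Averaged over 3 probes, its signals were 919 and 922 on the first array and 670 and 677 on the swap. These probes disagreed, with -0.03 and -0.01, 0.02 and 0.24, and 0.06 and -0.20, so that only 1 was higher on both arrays. With normexp background correction and loess, the mean of PSME3 was -0.02. The inhibitor PSMF1 averaged 1107 and 1041 on the first array and 727 and 860 on the swap, for ratios of -0.07 and 0.23. Its 2 probes read 1873 and 654 in control RNA of the first array.

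Several probes gave a check within genes. Of the 41 genes, 15 had more than 1 counted probe, and the range of the mean ratio over a gene's probes had a median of 0.15, against 0.19 over all 5064 gene names with several. No proteasome gene had probes differing by more than 0.5 in the mean. The widest range was that of PSMD1, a scaffold of the base: 1 probe gave 0.13 and 0.11 on the arrays and the other, whose ends lie 7267 bases apart on the genome, -0.52 and 0.01. Probes of PSME1 gave -0.11 and -0.11 in 1 case and -0.75 and 0.16 in the other. PSMF1 was alike in this, with 0.26 and 0.10 for 1 probe and -0.40 and 0.36 for the other. In each of these 3 genes the probe with the smaller deviation on the first array was the brighter. The brightest probe lay closer to 0 than the dimmest on the first array in 11 of the 15 genes, and in 3039 of all 5064 gene names with several probes. Every proteasome probe was spotted once, so that no spread between spots exists for it. For 143 counted probes spotted 10 times, the median SD of the log2 ratio over spots came to 0.046 (first array) and 0.048 (dye swap).

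**Figure D4:**
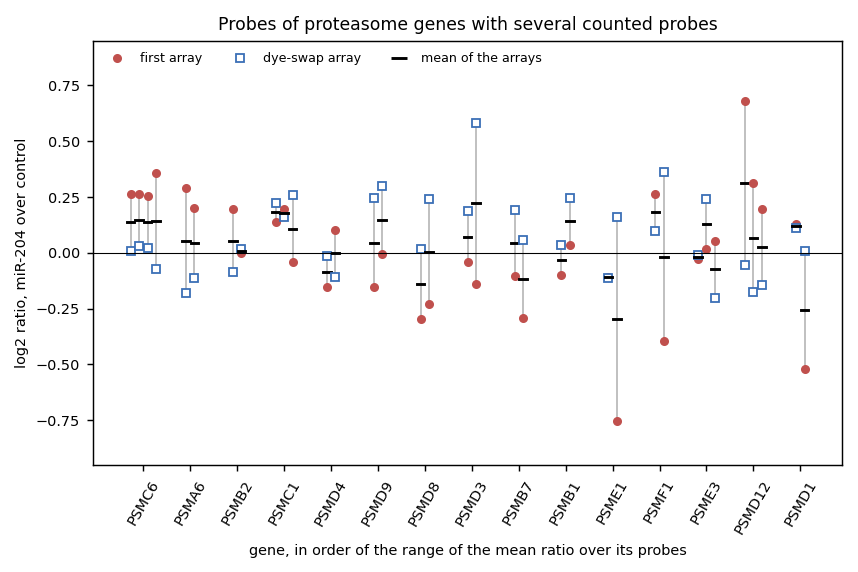
Log2 ratio of miR-204 over control for each counted probe of the 15 proteasome genes with several, on the first array (red circle) and the dye-swap array (open blue square), with the mean as a black bar, ordered by the range of the mean over a gene's probes. The 4 probes of PSMC6 have means within 0.009, and the probes of PSMD1 differ by 0.37.

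Promoters of the proteasome genes were read because the complex is known to be transcribed as a set, although the signs of the 41 genes differed here. RefSeq promoters (GRCh38.p14, 250 bases before to 50 bases after the start) were at hand for 38 of the 43 genes and 27305 genes in all, with both strands searched. None of the 6 motifs contains another. The letters CCGGAAGT, a form of the site bound by ETS factors, occurred in 10 of 38 proteasome genes (26.3%) and in 4.95% of all genes. TGANNNNGC, a loose form of the element bound by NFE2L1 and NFE2L2, occurred in 65.8% against 47.1%, and GGGCGG, the core of the site of SP1, in 68.4% against 48.3%. CCAAT occurred in 47.4% against 39.7%, TATAAA in 13.2% against 14.0% and CACGTG in 7.89% against 8.77%. By direction, CCGGAAGT was in the promoter of 1 of the 8 genes higher on both arrays for which one was at hand, 1 of 2 lower on both and 7 of 26 with opposite signs. Promoters are shown for the gene higher on both arrays that holds these letters, PSMC1 (chr14:90256303-90256602, plus strand), and for the gene with the widest gap between arrays, PSMD13 (chr11:236726-237025, plus strand). Capitals mark CCGGAAGT or its reverse complement.
PSMC1: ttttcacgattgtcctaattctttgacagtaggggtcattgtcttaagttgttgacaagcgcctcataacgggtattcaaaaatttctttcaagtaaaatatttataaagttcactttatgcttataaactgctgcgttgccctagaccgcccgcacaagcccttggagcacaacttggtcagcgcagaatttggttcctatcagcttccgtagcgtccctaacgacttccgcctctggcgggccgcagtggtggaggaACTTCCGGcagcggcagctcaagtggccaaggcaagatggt
PSMD13: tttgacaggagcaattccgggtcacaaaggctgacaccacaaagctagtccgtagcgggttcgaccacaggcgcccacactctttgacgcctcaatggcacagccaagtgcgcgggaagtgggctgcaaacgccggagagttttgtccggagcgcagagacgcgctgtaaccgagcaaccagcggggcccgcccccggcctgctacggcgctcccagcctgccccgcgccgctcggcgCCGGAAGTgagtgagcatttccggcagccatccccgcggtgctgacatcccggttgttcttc
The letters stand on the opposite strand in PSMC1 and on the gene's own strand in PSMD13. A match is a description of the sequence and shows no binding.

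Genes that work with the proteasome were counted, 30 of 30, under current or older names. None passed 2-fold, and 1 was lower by 1.5-fold with the same sign on both arrays, DDI2, a shuttle protein with a protease domain that cuts NFE2L1. Its counted probe read 169 in control and 69.2 in miR-204 RNA on the first array and 85.7 and 72.2 on the swap. The ratios were -1.29 and -0.26, both below 0, with most of the deviation on the first array. Of the 30 genes, 6 were lower on both arrays, 6 were higher on both and 18 had opposite signs, and their median mean ratio was -0.01. Over all gene names, 22.8% were lower on both, 24.5% higher on both and 52.5% had opposite signs, and 2.06% were lower by 1.5-fold.

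Subunits and assembly factors outside the PSM names lay between -0.10 for PAAF1 and 0.26 for ECPAS, an adaptor of the complex. Averaged over 2 probes, ECPAS was higher on both arrays (0.21 and 0.31). Its brighter probe gave -0.005 and 0.30, and its dimmer probe 0.43 and 0.31. Deubiquitinases and ligases at the proteasome lay between -0.20 for UBE3C, a ligase, and 0.21 for TXNL1, a thioredoxin-like protein that binds the 19S particle. Apart from DDI2, the shuttle factors reached 0.20 for UBQLN1. The unfoldase VCP had 3 probes, with first-array ratios of -0.27, -0.91 and -1.56 and dye-swap ratios of -0.01, 0.21 and 0.51, and the order of deviation was the reverse of the order of their signals. Transcription factors of proteasome genes ran from -0.27 for MAFK, a small partner protein of the NFE2 factors, to 0.06 for NGLY1, the enzyme that removes sugars from NFE2L1. NFE2L1 itself, the main activator of proteasome genes when the complex is inhibited, had -0.30 and 0.05 over 4 probes that disagreed. The brightest was lower on both arrays, at -0.58 and -0.16, and 1 was higher on both, at 0.14 and 0.02. The remaining probes had opposite signs. NFE2L2 had 0.27 and -0.27. Of ubiquitin genes and their activating enzymes, UBA1, which starts most ubiquitin transfer, had -0.93 and 0.01, and the ubiquitin gene UBB had 0.01 and 0.13.

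**Figure D5:**
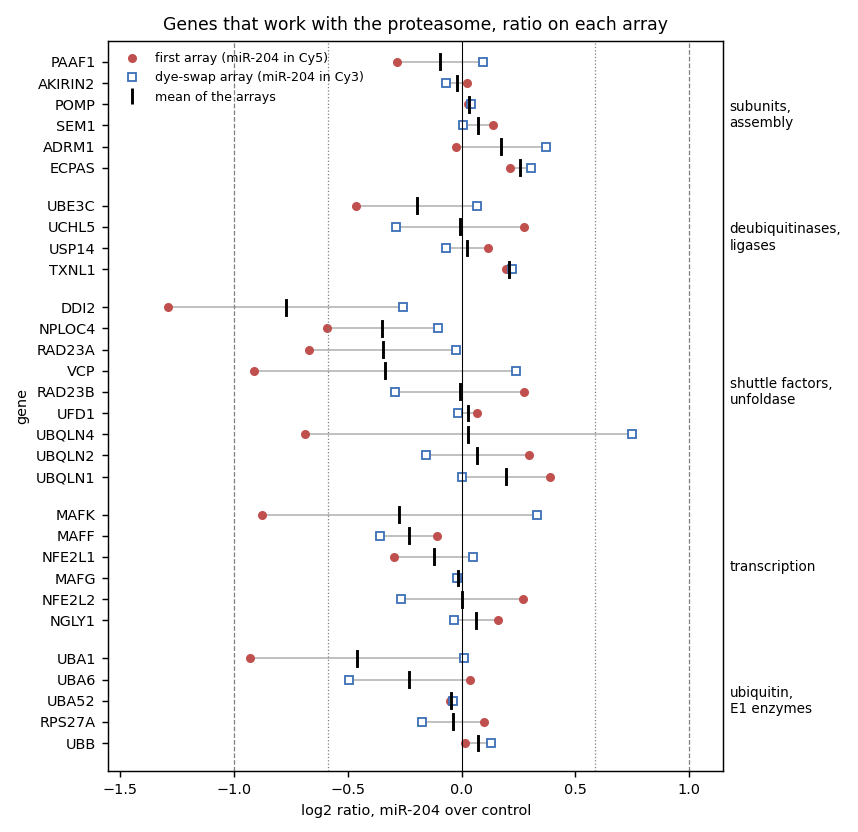
Log2 ratio of miR-204 over control for 30 genes that work with the proteasome, by role, on the first array (red circle) and the dye-swap array (open blue square), with the mean as a black bar. Dotted lines stand at 1.5-fold and dashed lines at 2-fold. Of these, DDI2 has the only mean beyond a dotted line, and UBA1 lies at -0.93 on the first array and 0.01 on the swap.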

How the data were processed

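The authors extracted the scans with Feature Extraction 9.5.3.1 and deposited, for each spot, processed signals as intensity values already corrected for background and dye, mean and background signals as uncorrected intensity values, and a log10 ratio of Cy5 over Cy3. The series table that the authors deposited gives log2 ratios of miR-204 over control, with the dye swap turned. The p-value beside the log10 ratio comes from the authors' software and was not used.

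From the processed signals, log2 values were averaged over the spots of a probe, 128 probes with an outlier flag were dropped and the 4 channels were quantile normalized (limma 3.58.1, R 4.3.3). The dye-swap ratio was turned, the arrays were averaged and the counted probes of a gene name were averaged. Processed signals given for a gene with several counted probes are averages of these on the log2 scale. Counts ask for the same sign on both arrays at 2-fold, the threshold of the study's methods, or at 1.5-fold. For like signal, the median of the counted probes in the same of 20 bins was subtracted on each array. Steps were tested on simulated data. With 1 replicate, the values carry no test between conditions, and the number of arrays limits the precision. The t-test of the study's methods was run only as an alternative and takes channels of 1 replicate as if they were replicates. On the first array 27424 spots in control and 28236 in miR-204 RNA were well above background, and on the dye swap 29024 and 25284, of 43376 spots. Among the alternatives were other corrections for background, normalizations, deposited values, filters, gene summaries, bins and single arrays.

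The members, gene lists and named genes were chosen with earlier results of these data known. Named were all members by role, with every channel for PSMB5, PSMB6, PSMB7, PSMB8, PSMB9 and PSMB10 and for the lowest and highest gene of each role, and the lowest and highest gene of each further list. PSMC5, PSMD2, PSMD11, PSMD1 and further genes named for a gap between arrays or probes were chosen after their values were seen. One gene of the further lists is not reported here. Positions of probes come from the files and refer to hg18.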

Additional observations from a re-analysis of the deposited data

How the results depend on the processing

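No paired analysis was possible because no second transfection is named and both arrays were taken as 1 replicate. The counts of proteasome genes past 2-fold stayed at 0 in each direction with every alternative that kept both arrays. The methods' t-test over the 4 channels takes arrays counted as 1 replicate for replicates and can only remove calls past 2-fold, so its counts of 0 say nothing of stability. At an unadjusted p under 0.05 it called 1192 gene names, 1 of them a proteasome gene, and after Benjamini-Hochberg adjustment 0. The median proteasome log2 ratio lay between -0.04 and 0.07, and that against probes of like signal between -0.05 and 0.08, the ends being the values of the single arrays.

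Without the first array, 13 proteasome genes were lower and 28 higher, and 1 (PSMD13) was higher by 1.5-fold. Without the dye-swap array, 23 were lower and 18 higher, 3 were lower by 1.5-fold and 2 by 2-fold. With normexp background correction and loess, 7 genes were lower on both arrays, and with the brightest probe of each gene 14 were higher on both. Without the filter on dim probes 1 gene was lower by 1.5-fold, PSMB8, whose probe was not well above background. The cause of the other changes was not tested.

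Genes with opposite signs numbered 23 to 29 in the settings that kept both arrays. The share was 56.1%, against 52.1% of all gene names, with the brightest probe of each gene, and 65.9% against 59.96% with quantile normalization of the ratios. The correlation between arrays over the 41 genes lay between -0.73 and -0.67 in each of these settings other than the one without a filter on dim probes, where 43 genes gave -0.20. With quantile normalization of the ratios, the medians of all gene names stood at 0.13 (first array) and -0.11 (dye swap) and those of the proteasome genes at 0.06 and -0.04, so that 10 of 41 proteasome genes in place of 19, and 14.1% of all gene names in place of 24.7%, had a negative ratio on the first array with a positive one on the swap. Leaving out the PSMB7 probe of the other strand, an alternative chosen after seeing the data, changed none of the counts. Signal over background limits PSMA8 and PSMB8, and PSMB9 and PSMD5 were measured at low signal.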
